A study of Mus musculus with 18 samples.

Results

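The regions described here are stretches of acetylated histone H3 that stood alone and away from H3K4me3 in the chromatin of mouse embryonic fibroblasts. They were chosen by the positions of H3Ac peaks in GFP cells and of H3K4me3 peaks in both conditions, on chromosomes 1 to 19. A GFP H3Ac peak counted as distal when it lay more than 5000 bases from every H3K4me3 peak of the Cre and the GFP library. Distal peaks with gaps of up to 12.5 kb were joined, and the joined groups that held exactly 1 peak are the isolated distal regions. There were 9217 of them among 47904 autosomal GFP H3Ac peaks, and the whole list held 48778. They made up 43.1% of the 21404 distal peaks and 69.3% of the 13293 joined groups. The other 12187 distal peaks formed 4076 groups of more than 1 peak and are called clustered here. A further 26500 peaks lay within 5000 bases of H3K4me3.

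The fibroblasts carried a conditional allele of Rb on a mixed B6;129 background. Cre cells were infected with an adenovirus for the Cre recombinase, which deletes the allele, and GFP cells with an adenovirus for green fluorescent protein, which leaves it in place. Neither received reprogramming factors ("no 4F"), and both were expanded for at most 3 passages before chromatin immunoprecipitation. Pan-acetyl H3 (H3Ac), H3K4me3, H3K27me3 and H3K9me3 each had 1 library per condition, so the comparisons of Cre with GFP cells below are without replicates and without p-values. The share of Cre cells that had lost Rb, and whether both infections used the same embryos, are not given in the sources used here. No annotation of the peak lists' genome build (NCBIM37) was used here. The fibroblast identity of the cells was therefore not checked against marker genes, and no gene name or base sequence is attached to a region.

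Acetylation of histone tails loosens their hold on DNA and marks open, active chromatin. At promoters it accompanies H3K4me3. Acetylated chromatin without H3K4me3 is a common property of enhancers, the distant switches that tune genes by cell type, and enhancers may stand alone or in dense groups. H3K27me3, laid down by Polycomb complexes, and H3K9me3, found in heterochromatin, mark silent chromatin. The Rb protein binds E2F transcription factors and can bring histone deacetylases to the genes they control. Whether the regions described here act as enhancers was not measured.

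Most of the isolated distal regions were short and weakly scored. Their median width was 1196 bases, the middle 50% spanned 937 to 1641 bases, and the widest covered 8859 bases. The authors' peak score, which is used here to rank peaks within a list, starts at 50. Its median was 112 over the isolated regions, 141 over clustered peaks and 513 over peaks near H3K4me3. Of the isolated regions 4052 (44.0%) scored below 100 and 90 scored at least 1000. Together they covered 12.8 Mb of the 88.1 Mb under autosomal GFP H3Ac peaks. These values come from the list that chose the regions and are a description only.

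"Isolated" refers to other distal peaks. An H3K4me3-near GFP H3Ac peak lay within 12.5 kb of 2209 of the isolated regions, and the other 7008 (76.0%) were farther than that from every other GFP H3Ac peak. The distance to the nearest H3K4me3 peak ranged from 5005 to 1564760 bases, with a median of 32831. There were 5712 regions (62.0%) within 50 kb of H3K4me3 and 804 (8.72%) more than 200 kb away. The median gap to the next distal peak was 39406 bases.

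The limits of the definition fell between neighbouring values. The region nearest to H3K4me3, chr2:144277784-144279081, was 5005 bases away and scored 84.5, and chr9:45769460-45770443, at 4999 bases and a score of 87.7, was left out. Neither overlapped a Cre H3Ac peak, and the first overlapped H3K27me3 in both libraries. The smallest gap was 12517 bases at chr10:95188049-95189207, which scored 155, and the nearest peak left out for its gap, chr5:151870715-151874702, had 12499 bases and a score of 901. Both of these overlapped a Cre H3Ac peak.

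The first comparison asked how many of these regions also carried H3Ac after infection with Cre. The Cre H3Ac list had an overlapping peak at 4600 of the 9217 isolated regions, 49.9% (exact 95% interval 48.9 to 50.9), and none at the other 4617. Over all autosomal GFP H3Ac peaks 73.2% had a Cre peak and 26.8% had none. The share was 55.5% (54.6 to 56.4) for clustered peaks and 89.5% (89.1 to 89.9) for peaks near H3K4me3. The difference between isolated and clustered regions was -5.62 percentage points (-6.97 to -4.26). It was -2.88 when Cre peaks had to cover 50% of the region and -10.4 when a Cre peak within 1000 bases sufficed. With that reach a clustered peak can be credited with the Cre peak of a neighbour. The gap to the next distal peak had a lower quartile of 629 bases for clustered peaks and was at least 12517 bases for isolated regions. How far such neighbours moved the difference was not tested. The intervals treat peaks as independent and cover counting error only, and the sequencing depth of the libraries is unknown.

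Regions with a Cre peak had higher GFP scores than those without, with medians of 168 and 85.5, and were wider, with medians of 1451 and 1034 bases. All autosomal GFP H3Ac peaks were therefore split into 5 bins of equal size by score. Bin 1 ended at a score of 85.8, bin 2 at 156, bin 3 at 343 and bin 4 at 1091. From bin 1 to bin 5, the share of isolated regions with a Cre peak was 26.8%, 45.1%, 69.7%, 92.3% and 100%, over 3174, 2874, 2109, 989 and 71 regions. For clustered peaks it was 26.5%, 42.1%, 70.0%, 91.6% and 98.8%. At like score, then, the intervals of isolated and clustered regions overlapped in each of the 5 bins. With 10 bins they overlapped in all but bin 4, where 52.5% (49.8 to 55.1) of isolated and 46.5% (44.0 to 48.9) of clustered peaks had a Cre peak. GFP peaks near H3K4me3 stood higher in bins 1 to 4 of 5, at 51.6%, 75.0%, 91.7% and 99.1%, with intervals apart from those of both distal classes. In bins of equal size by width, 26.1% of the narrowest and 88.9% of the widest isolated regions had a Cre peak. In the middle width bin it was 58.5% of isolated regions, against 57.1% of clustered peaks and 91.4% of peaks near H3K4me3.

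**Figure D1:**
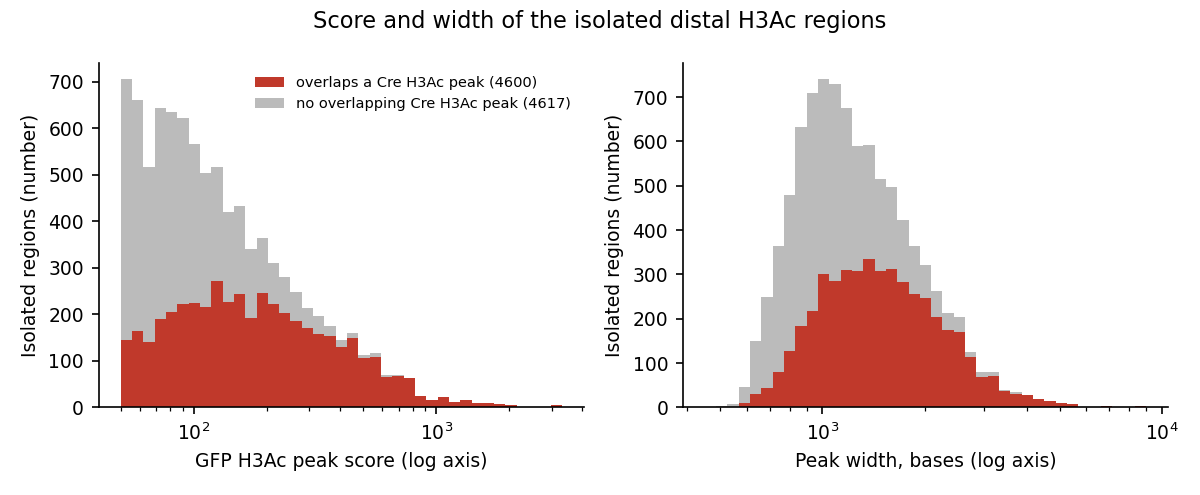
Number of isolated distal regions by GFP H3Ac score (left, log axis) and by width in bases (right, log axis), split into the 4600 that overlapped a Cre H3Ac peak and the 4617 that did not. Regions without a Cre peak are concentrated at low score and small width, with medians of 85.5 and 1034 bases.

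**Figure D2:**
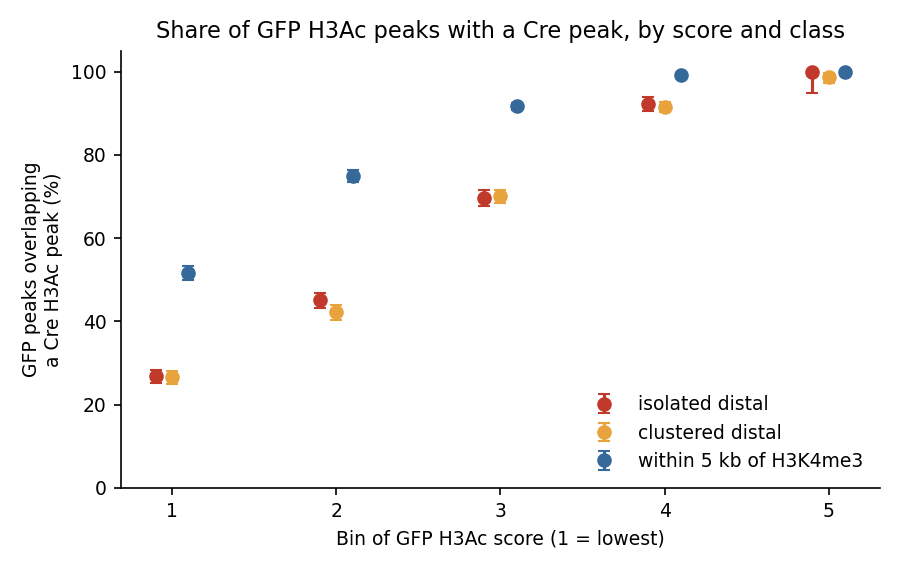
Share of autosomal GFP H3Ac peaks that overlapped a Cre H3Ac peak (percent, y axis) in 5 equal-sized bins of GFP score (x axis), for isolated distal, clustered distal and H3K4me3-near peaks. Bars are exact 95% binomial intervals; isolated and clustered points lie together, and H3K4me3-near points lie above them in bins 1 to 4.

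The 5 highest-scoring isolated regions each had a Cre peak, but of varying strength. The first, chr1:164110232-164119090, is also the widest isolated region. It scored 3115 in Cre and 3197 in GFP cells, and Cre peaks covered 97.4% of it. The region chr11:86380703-86388175 scored 2999 in Cre and 3100 in GFP cells, and chr12:70637268-70641497 scored 2991 in Cre and 3100 in GFP cells. The other 2 were chr2:13474854-13481953, which scored 963 in Cre and 3100 in GFP cells, and chr11:109528894-109534354, which scored 1278 in Cre and 3100 in GFP cells. Scores of different libraries are not on 1 scale. By percentile rank, among all shared peaks, these 2 were lower in Cre cells, with Cre minus GFP differences of -25.2 and -19.9 points, where the median over the 30 isolated regions of the highest GFP rank bin was -21.0. A score of 3100 was shared by 2960 peaks of the whole GFP list, so that the order among them is not resolved.

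Wide regions could be broken up in the Cre list. At chr4:123097407-123105828, 3 Cre peaks covered 57.2% of a GFP peak of 8422 bases, and the highest of them scored 312, against 1898 in GFP cells. At chr11:75559032-75566424, 3 Cre peaks covered 42.0% of a GFP peak of 7393 bases, and the highest scored 102, against 522 in GFP cells. The nearly equally wide region chr10:8461107-8469963 was covered to 91.0% by a single Cre peak that scored 979, against 1032 in GFP cells. Most shared isolated regions were not split in this way. Of these 4600, 4447 (96.7%) overlapped exactly 1 Cre peak and 153 overlapped more. The same share for other GFP H3Ac peaks is not given here.

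Shared regions lay at nearly the same place. The centres of the Cre and the GFP peak were a median of 145 bases apart. Cre peaks covered a median of 83.0% of the GFP region, and 778 regions were covered whole. The Cre peak had a median width of 1255 bases and a median ratio of 0.899 to the width of the GFP peak, and it was the wider one in 1646 regions (35.8%).

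In regions without a Cre peak, the median distance to the nearest one was 22972 bases. Of the 4617, 77 (1.67%) had a Cre H3Ac peak within 1000 bases and 1287 (27.9%) within 12.5 kb. These shares are not given here for other GFP H3Ac peaks, and the definition chose regions without distal GFP neighbours. A distal Cre peak lay within 12.5 kb of 7.84% of the 4617, against 66.4% of clustered peaks without a Cre peak. The GFP score was at least 200 in 397 of the 4617 and at least 300 in 127. The highest, 748, was reached at chr13:113990443-113994140, where the nearest Cre H3Ac peak was 66198 bases away. The next, chr1:156921146-156923881, scored 717 and had a Cre peak 5448 bases away. It was followed by chr3:136992978-136996357 with 659, chr1:151659590-151662610 with 654 and chr10:121339281-121342508 with 619. None of these 5 regions overlapped a Cre or GFP peak of H3K27me3 or H3K9me3.

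The share of regions with a Cre peak was lower far from H3K4me3. It was 53.5% (51.0 to 55.9) for regions 5 to 10 kb away, 51.4% at 10 to 20 kb, 51.0% at 20 to 50 kb, 50.3% at 50 to 100 kb, 47.7% at 100 to 200 kb and 38.2% (34.8 to 41.6) beyond 200 kb. The farthest regions also had the lowest median score, 96.5 against 114 at 5 to 10 kb, so the shares were compared within score bins. In bin 2, 34.8% (28.9 to 41.2) of regions beyond 200 kb had a Cre peak, against 50.7% (46.3 to 55.0) at 5 to 10 kb, with median widths of 1174 and 1196 bases. In bin 3 it was 56.0% (48.1 to 63.7) beyond 200 kb, against 72.9% (68.2 to 77.2) at 5 to 10 kb. The intervals were apart in bins 2 and 3 and overlapped in the other bins. In bin 1 the shares were 21.4% (17.0 to 26.2) beyond 200 kb and 27.1% (23.4 to 31.0) at 5 to 10 kb, and in bin 4 they were 83.6% (72.5 to 91.5) and 94.3% (90.0 to 97.1).

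In the opposite direction, from isolated regions of the Cre list to GFP peaks, the share over all scores was also lower far from H3K4me3, at 65.7% (61.6 to 69.7) beyond 200 kb, against 72.6% (70.2 to 75.0) at 5 to 10 kb. Within score bins 1 to 4 the intervals overlapped. In bin 2 of the Cre scores 73.3% (66.6 to 79.2) of Cre regions beyond 200 kb had a GFP peak, against 71.6% (67.2 to 75.7) at 5 to 10 kb. In bin 3 it was 91.3% (83.6 to 96.2) beyond 200 kb, against 94.9% (92.0 to 96.9). Whether the 2 directions differ was not tested.

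**Figure D3:**
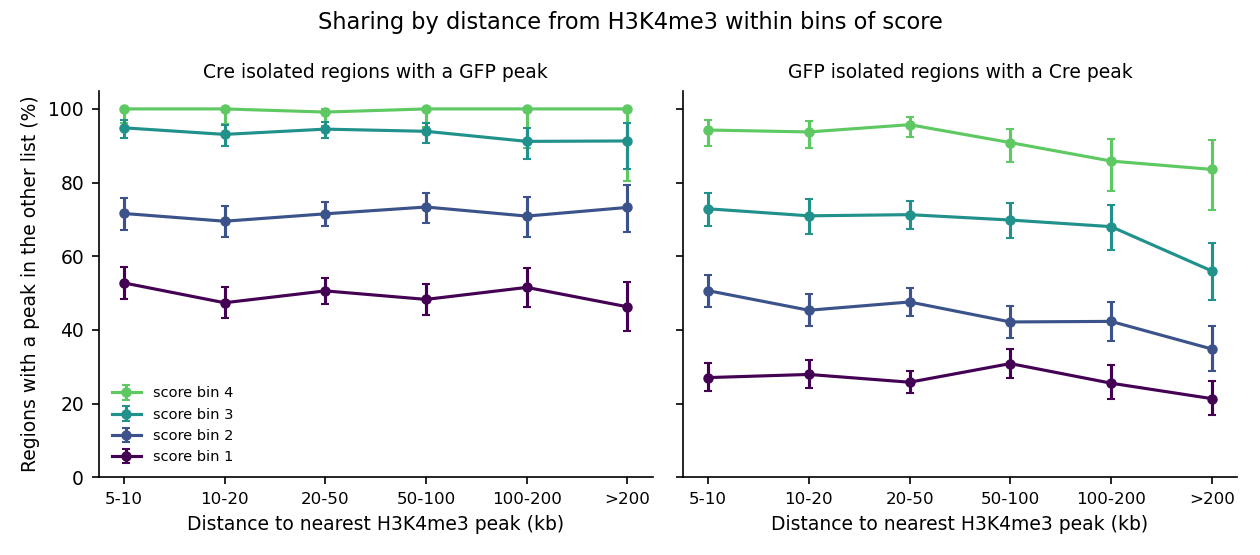
Share of isolated distal regions with a peak in the other H3Ac list (percent, y axis) by distance to the nearest H3K4me3 peak (kb, x axis), for score bins 1 to 4, with Cre regions on the left and GFP regions on the right. Bars are exact 95% binomial intervals; beyond 200 kb the GFP regions reach 34.8% in bin 2 and 56.0% in bin 3, and the Cre regions 73.3% and 91.3%.

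The share also differed with the gap to the next distal peak. From 12.5 to 25 kb 52.9% of the regions had a Cre peak, from 25 to 50 kb 50.7%, from 50 to 100 kb 47.6% and beyond 100 kb 46.6%. The median score was lower at each wider gap too, at 123, 117, 106 and 99.5, and in score bin 1 the 4 shares lay between 26.2% and 27.6%. Isolated regions of the Cre list had a GFP peak in 63.8% (61.7 to 65.9) of cases beyond 100 kb, against 74.3% (72.3 to 76.2) from 12.5 to 25 kb. There the intervals were apart within bin 1 of the Cre scores as well, at 46.8% (43.4 to 50.2) beyond 100 kb, against 54.1% (50.4 to 57.8). They overlapped in bin 2, at 67.8% (64.2 to 71.3) against 74.0% (70.4 to 77.3). In bin 3 they also overlapped, at 90.5% (87.1 to 93.2) against 95.3% (93.1 to 97.0), and in bin 4 both shares were 100%. By chromosome the share ranged from 45.2% (41.0 to 49.5) on chromosome 5 to 55.0% (49.5 to 60.4) on chromosome 17, where the median scores were 103 and 116. Isolated regions made up between 15.0% of the GFP H3Ac peaks on chromosome 7 and 24.2% on chromosome 13.

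Where both lists had a peak, scores were compared as percentile ranks among the 35086 autosomal GFP H3Ac peaks with a Cre counterpart. The 4600 isolated regions had a median rank of 21.7 in Cre and 26.5 in GFP cells. The median difference, Cre minus GFP, was -4.23 points, with the middle 50% between -16.2 and 6.33. It was -7.27 for clustered peaks and 0.593 for peaks near H3K4me3. The rank was more than 10 points lower in Cre cells in 1689 isolated regions (36.7%), where 21.6% of all shared peaks were that much lower. It was more than 10 points higher in 831 (18.1%), where 19.9% of all were.

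At like GFP rank, in 5 equal bins, the medians of isolated and clustered regions were closest at low rank. From bin 1 to bin 5 they were 4.87, -7.67, -16.2, -18.0 and -21.0 for isolated regions, over 1783, 1481, 1009, 297 and 30 of them. They were 4.88, -7.86, -15.4, -15.6 and -15.6 for clustered peaks, and 14.3, 5.94, 1.96, -1.36 and -0.529 for H3K4me3-near peaks. In each bin the middle 50% of isolated and clustered regions overlapped. The bins were cut by GFP rank, which is also subtracted in the difference. A fall from low to high bins is therefore partly built in, and no bins by Cre rank were made. Regions picked for a GFP peak also tend to rank higher in the GFP list by that choice. Taken from the Cre list, over 5504 isolated Cre regions with a GFP peak, the median difference was -1.47, against -4.54 for clustered and 2.82 for H3K4me3-near peaks and 2.00 for all.

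**Figure D4:**
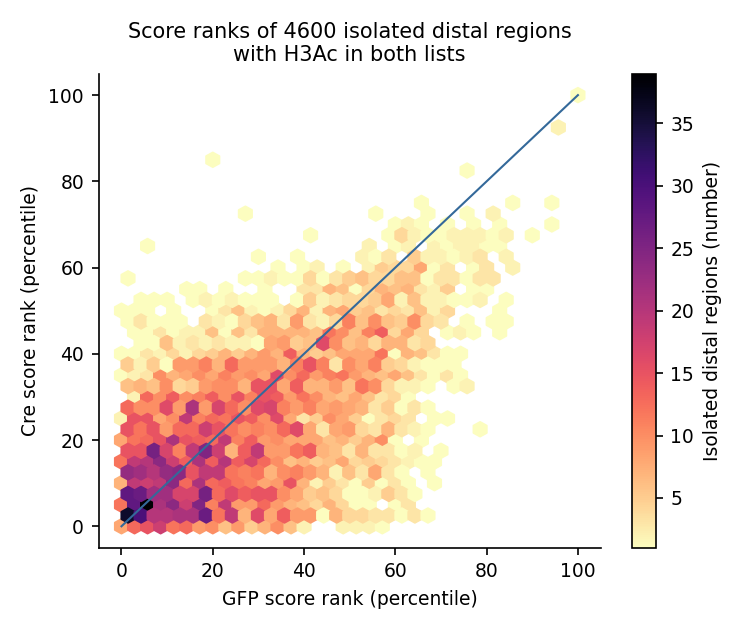
Percentile rank of the Cre H3Ac score (y axis) against that of the GFP H3Ac score (x axis) for the 4600 isolated distal regions with H3Ac in both lists, coloured by number of regions; the line marks equal rank. Most regions lie at low rank in both lists, with medians of 21.7 in Cre and 26.5 in GFP cells. Those of high GFP rank lie mostly below the line, a position that picking regions by GFP rank favours in itself.

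At the largest falls in rank a narrow, weak Cre peak stood within a wide GFP peak. At chr1:64646394-64649982 the score was 59.6 in Cre and 813 in GFP cells, and the Cre peak covered 21.8% of the region. At chr13:29593978-29597642 it was 59.5 in Cre and 680 in GFP cells, with 22.7% covered, and at chr12:71714860-71719159 it was 58.9 and 672, with 18.3% covered. At the largest rises the Cre peak was the wider one. At chr9:20748273-20749273 the Cre peak ran from 20747080 to 20751744 and scored 725, against 67.5 in GFP cells. At chr4:135773668-135774445 the Cre peak ran from 135772621 to 135775659 and scored 489, against 55.0 in GFP cells. The largest rise, at chr18:38045353-38046871, rested on a Cre peak that covered 6.78% of the region and scored 2081, against 130 in GFP cells.

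The same definition applied to the Cre H3Ac list gave 7905 isolated distal regions among 41827 autosomal peaks. The ratio of Cre to GFP counts was 0.858 (0.832 to 0.884) for isolated regions, 0.644 (0.626 to 0.663) for clustered peaks and 0.984 (0.967 to 1.00) for peaks near H3K4me3. When both lists were cut to the same number of their strongest peaks, the ratios in the same order were 0.979 (0.949 to 1.01), 0.856 (0.830 to 0.882) and 1.06 (1.04 to 1.08). A GFP H3Ac peak overlapped 5504 of the Cre isolated regions, 69.6% (68.6 to 70.6), where 84.6% of all autosomal Cre H3Ac peaks had one and 15.4% had none. Here isolated regions stood below clustered ones at like score. In bin 1 of the Cre scores 49.7% (47.9 to 51.5) of isolated regions had a GFP peak, against 59.7% (57.7 to 61.7) of clustered peaks, and in bin 2 71.6% (69.8 to 73.3), against 80.1% (78.4 to 81.7). Cre peaks near H3K4me3 did not stand above both distal classes here, at 53.5% (51.7 to 55.3) in bin 1 and 74.4% (72.9 to 75.8) in bin 2. In bin 3 the shares were 93.7% for isolated, 95.3% for clustered and 94.5% for H3K4me3-near peaks, with overlapping intervals.

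There were 2401 isolated Cre regions without a GFP peak and 4617 isolated GFP regions without a Cre peak, a ratio of 0.520 (0.495 to 0.546). Between lists cut to the same number of peaks there were 2935 Cre and 3455 GFP regions, a ratio of 0.849 (0.808 to 0.893). Few of those of the Cre list were strong, with 42 that scored at least 200 and 4 that scored at least 300. These 4 were chr2:61191314-61192936 with 408, chr10:96931712-96933579 with 330, chr16:44631687-44633229 with 324 and chr5:43940863-43942416 with 315. The nearest GFP H3Ac peak was 46252 bases away from the first and 967 bases from the one on chromosome 16. Next came chr12:113898347-113900212, which scored 279.

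Whether a region stood alone could differ between the libraries. Of the 7905 isolated Cre regions, 3919 (49.6%) met an isolated GFP peak, 1503 a clustered GFP peak and 82 a GFP peak near H3K4me3. Of the 9217 isolated GFP regions, 3920 (42.5%) met an isolated Cre peak, 649 (7.04%) a clustered Cre peak and 31 a Cre peak near H3K4me3. Further distal GFP peaks within 12.5 kb were found around 1818 isolated Cre regions, 23.0% (22.1 to 23.9), where 54.1% of all distal Cre peaks had one. Further distal Cre peaks were found around 886 isolated GFP regions, 9.61% (9.02 to 10.2), where 44.9% of all distal GFP peaks had one. The GFP list holds more distal peaks, 21404 against 15755, and the part of list length in this difference was not tested. The value of 9.61% was 5.68% at a score of at least 100 in every list and 5.95% with a joining gap of 5000 bases.

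**Figure D5:**
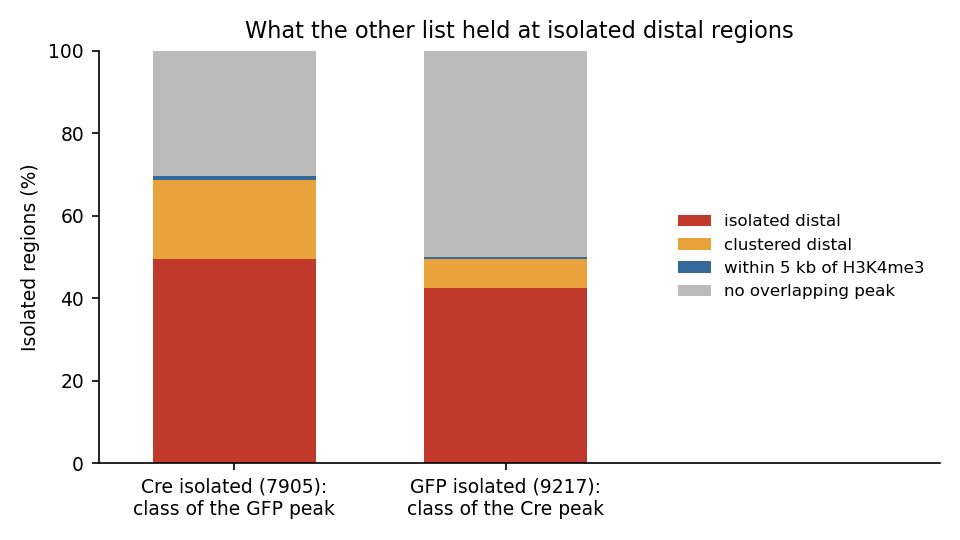
Class of the overlapping peak in the other H3Ac list for 7905 isolated Cre regions (left bar) and 9217 isolated GFP regions (right bar), as percent of the regions. No counterpart was found for 30.4% of the Cre and 50.1% of the GFP regions, and an isolated one for 49.6% and 42.5%.

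Silent marks were rare at the isolated regions. H3K27me3 overlapped 109 of the 9217 with Cre, 1.18% (0.972 to 1.42), and 101 with GFP, 1.10% (0.893 to 1.33). The shares were 0.682% with Cre and 0.696% with GFP at a score of at least 100 in every list, and 2.34% and 2.89% with a reach of 1000 bases, which turned their order. Of all autosomal GFP H3Ac peaks, 2.64% overlapped Cre and 2.33% overlapped GFP H3K27me3. The mark was in both libraries at 67 regions, in Cre only at 42 and in GFP only at 34. Clustered peaks carried it less often, with 30 of 12187 in Cre cells, 0.246% (0.166 to 0.351), and 28 in GFP cells, 0.230% (0.153 to 0.332). Peaks near H3K4me3 carried it more often, at 4.25% in Cre and 3.73% in GFP cells. H3K27me3 lay on or within 10 kb of 996 isolated regions (10.8%) in Cre and 1281 (13.9%) in GFP cells, against 3.23% and 4.43% of clustered peaks. Over all autosomal GFP H3Ac peaks it was 14.6% in Cre and 16.8% in GFP cells, more than at isolated regions. Of the isolated regions of the Cre list, 2.14% overlapped Cre and 2.45% GFP H3K27me3, where 4.00% and 3.91% of all autosomal Cre H3Ac peaks did.

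Within the GFP list, isolated regions with H3K27me3 had a Cre H3Ac peak more often than others of like score. There were 143 with the mark in either library, 1.55%, where 3.06% of all autosomal GFP H3Ac peaks had it. A Cre H3Ac peak was present at 85 of them, 59.4% (50.9 to 67.6), against 49.8% (48.7 to 50.8) of the 9074 without the mark, although their median score was lower, 82.9 against 113. In score bin 1 it was present at 34 of 76, 44.7% (33.3 to 56.6), against 26.4% (24.8 to 28.0). In bin 2 it was present at 33 of 48, 68.8% (53.7 to 81.3), against 44.7% (42.8 to 46.5). The intervals were apart in bins 1 and 2 and overlapped in bin 3, with 16 of 17 against 69.5%. The order was not particular to isolated regions. Peaks near H3K4me3 had it in bin 1, with 71.7% (66.5 to 76.6) against 49.3% (47.4 to 51.2). In bin 2 they had 85.8% (81.5 to 89.4) against 73.9% (72.4 to 75.5), and in bin 3 92.2% against 91.6%. Clustered peaks had it at 10 of 20 against 26.4% in bin 1 and 7 of 12 against 42.1% in bin 2. In bin 3 it was 4 of 5 clustered peaks against 70.0%, and the intervals of clustered peaks overlapped in bins 1 to 3. In the Cre list the order was the opposite. H3K27me3 of either library lay on 6.21% (5.27 to 7.25) of the 2401 isolated Cre regions without a GFP H3Ac peak. It lay on 1.67% (1.35 to 2.05) of the 5504 with one. For Cre peaks near H3K4me3 it was 22.1% against 4.90%, and for clustered Cre peaks 2.42% against 0.411%. These shares of the Cre list were not split by score. In bulk chromatin, overlapping peaks can come from different cells.

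In most of the overlaps the mark covered less than 50% of the region. Cre H3K27me3 covered at least 50% of the region in 47 of its 109 overlaps, 0.510% of all isolated regions, and GFP H3K27me3 in 40 of 101, 0.434%. At chr9:57502649-57504734, which had H3Ac scores of 382 in Cre and 451 in GFP cells, a GFP H3K27me3 peak ended at 57502662. At chr9:36740183-36742424, with H3Ac scores of 355 in Cre and 381 in GFP cells, a Cre H3K27me3 peak that scored 825 began at 36742135 and ran on to 36751472. At chr3:107035215-107037928, with 201 in Cre and 301 in GFP cells, only the Cre library had the mark, at a score of 156. Other regions had it in both conditions. At chr11:117245569-117247336 H3K27me3 scored 188 in Cre and 443 in GFP cells, beside H3Ac scores of 192 and 307. At chr11:32223569-32225395 it scored 254 in Cre and 57.5 in GFP cells, beside H3Ac scores of 86.8 and 272.

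H3K9me3 of Cre cells overlapped 1 isolated region and that of GFP cells 3, 0.0108% and 0.0325%, where 0.0564% and 0.0793% of all autosomal GFP H3Ac peaks did. It was present in both conditions at chr5:15021438-15023813, where it scored 55.6 in Cre and 258 in GFP cells, beside H3Ac scores of 99.2 and 127. The other 2 had the mark in GFP cells only. Of these, chr5:15134961-15137268 had H3Ac in both libraries and chr6:37655763-37656479 in GFP cells only.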

How the data were processed

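Histone marks were profiled by chromatin immunoprecipitation and sequencing, in 1 library for each mark and condition. The submitters' processing notes name BWA, SAMtools (0.1.18), MACS (1.4.1), which calls peaks, and bedtools (2.16.2), with build NCBIM37. Control library, duplicate handling and read depth are not given in the sources used here. By their titles, the histone input samples of Cre and GFP cells carry different replicate numbers, whereas the mark libraries share 1. The authors deposited 1 peak list per library, with start, end and a score for each peak. The score has no header or unit and served only to rank, bin and filter. Positions are printed counted from 1. The length of a list depends on its reads and on the enrichment as well as on the chromatin.

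Groups came from sample titles, and 10 of the 18 samples were not analysed here. Overlap means at least 1 shared base. Intervals of shares are exact (Clopper-Pearson) at 95%, and those of count ratios follow from the share of one count in both. The code was tested on simulated data, and a recount with separate software gave the same 9217 and 4600. Python (3.11.15), pandas (2.3.3), NumPy (2.4.6), SciPy (1.17.1) and matplotlib (3.10.9) were used.

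The regions, comparisons and lists were chosen with earlier results of these data known. Regions named are, by rule, the 5 highest-scoring, the 5 widest, the 5 highest-scoring without a Cre H3Ac peak, with H3K27me3 or with H3K9me3, the 3 largest rises and falls of rank, the 5 highest-scoring of the Cre list without a GFP peak, and those at the limits of the definition. Planned comparisons with gene lists and sequence motifs were not run, because no reference of the lists' build was used here. Alternatives were a score of at least 100, overlap of 50%, reach of 1000 bases, other distances and gaps, the GFP H3K4me3 list alone, equal list lengths, peaks merged within 1000 bases, 10 score bins and another choice of Cre peak.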

Additional observations from a re-analysis of the deposited data

Results flagged for a closer look

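Chromosome X lay outside the definition and was left out of the comparisons. The same definition applied to it gave 74 isolated distal regions in the Cre H3Ac list, and 23.0% of them (14.0 to 34.2) overlapped an H3K27me3 peak of the Cre library, above the 2.70% (0.329 to 9.42) that overlapped one of the GFP library. Of the 95 isolated regions of the GFP list on chromosome X, 15.8% (9.12 to 24.7) overlapped Cre and 3.16% (0.656 to 8.95) GFP H3K27me3. The intervals of the isolated regions include the shares over all peaks of the chromosome. There 19.7% (16.9 to 22.7) of all 757 Cre H3Ac peaks on chromosome X overlapped Cre and 3.57% GFP H3K27me3, and 17.8% (15.2 to 20.7) and 3.16% of all 791 GFP H3Ac peaks did. On the autosomes the shares for isolated GFP regions were 1.18% and 1.10%. A Cre H3Ac peak was present at 34 of the 95, 35.8% (26.2 to 46.3), against 49.9% of isolated regions on the autosomes. The same share over all 791 GFP H3Ac peaks of chromosome X is not given here, and scores were not matched. The whole Cre H3K27me3 list held 7053 peaks off the autosomes, against 1995 in the GFP list, counts that are not split by chromosome here. On the autosomes the Cre list was the shorter one, with 29328 H3K27me3 peaks against 34064. The difference on chromosome X was therefore not shown to be particular to isolated or to acetylated regions. Whether the sex of the cells had a part in it was not tested. The difference between the libraries has no replicate.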

How the results depend on the processing

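No paired analysis was possible because each mark has 1 library per condition, so that the Cre and GFP groups share a single replicate number and no result comes from a test. Of 96 recomputed values, 56 stayed within the interval, spread or 1.5-fold range of the reported one and 40 moved beyond it. Some of the 56 could not move. The settings of 50% overlap and of 1000 bases reach do not enter the number of isolated regions or the share with further distal Cre peaks. A reversal could be recorded only for the difference from clustered peaks, the rank difference and the count ratios, and none was recorded. The ratio for H3K4me3-near peaks, 0.984 (0.967 to 1.00), went to 1.06 with equal numbers but was not recorded as reversed. The H3K27me3 shares of Cre and GFP cells changed order at a score of at least 100 and with a reach of 1000 bases. The number of isolated regions ranged from 6452 with a joining gap of 25000 bases to 12667 with 5000 bases. The share with a Cre H3Ac peak was 45.5% at 50% overlap, 51.7% with the GFP H3K4me3 list alone, 51.0% and 48.6% with gaps of 5000 and 25000 bases, 57.4% with equal numbers of top-scoring peaks and 51.2% with merged peaks. It was 22.9% in the lowest of 10 score bins. The difference from clustered peaks was -2.88 percentage points at 50% overlap and -10.4 with a reach of 1000 bases. H3K27me3 overlapped 0.682% in Cre and 0.696% in GFP cells at a score of at least 100, 0.510% and 0.434% at 50% overlap, 2.34% and 2.89% with a reach of 1000 bases, 1.45% and 1.35% with the GFP H3K4me3 list alone, 0.908% and 0.861% with a gap of 5000 bases, and 0.938% and 0.864% with equal numbers. With a gap of 25000 bases the Cre value was 1.47%. H3K9me3 was within 1000 bases of 0.108% in Cre and 0.217% in GFP cells. The share with further distal Cre peaks was 5.68% at a score of at least 100, 8.96% beyond 10000 bases from H3K4me3, 5.95% and 13.1% with gaps of 5000 and 25000 bases, 12.0% with equal numbers and 8.94% with merged peaks. Isolated Cre regions had a GFP peak in 74.4% at a score of at least 100, 67.1% at 50% overlap, 71.4% and 68.0% with the 2 gaps, 63.0% with equal numbers and 70.7% with merged peaks. With equal numbers of top-scoring peaks, an alternative to the count ratios chosen after seeing the data, the Cre to GFP ratio was 0.849 for isolated regions without a counterpart, 0.979 for all isolated regions, 0.856 for clustered and 1.06 for H3K4me3-near peaks. Different cut-offs select different regions, and the cause of each change was not tested beyond that. Without read depth, a region without a peak cannot be told apart from one below the authors' threshold.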
